A study of Rattus norvegicus with 8 samples.

Results

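Growth hormone response genes were examined in the liver of rats fed a high phosphorus (HP) diet. The 10 genes were Ghr, Stat5b, Socs2, Cish, Socs3, Bcl6, Igf1, Igfals, Igfbp3 and Rgs3, and they were chosen for their place in growth hormone signalling with earlier results on these arrays known, among them large spreads of Socs2, Cish and Bcl6 between rats. The measured probe sets were selected on their span over the 8 arrays. A probe set, the group of short probes that reads 1 transcript, was assigned to a gene when the array's annotation gave it that symbol alone. It was counted as measured when its highest value exceeded its lowest by at least 0.05 (log2) over the 8 arrays. By this rule 8 of the 10 genes were measured, through 10 of their 17 probe sets, out of 2808 measured genes among the 14218 genes named on the array. The smallest span among the measured probe sets was 0.30 (Igfbp3, 1367652_at), and the largest among the others was 0.0019 (an Igf1 probe set), so that no probe set lay near the limit. Stat5b (a value of 6.88) and Socs3 (6.32) were nearly constant over the arrays, and no diet comparison is given for them.

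All rats were males of the Wistar strain, 8 weeks old in the labels. The 4 control rats ate an AIN-93G-based diet with 0.3% phosphorus and the 4 HP rats the same kind of diet with 1.2% phosphorus, for 24 days. Each liver was read on 1 Affymetrix rat array. The rats are named here by diet and number (control rat 1 to 4, HP rat 1 to 4).

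Growth hormone is released by the pituitary in pulses in male rats and binds its receptor, Ghr, on hepatocytes. The receptor activates the kinase Jak2, which phosphorylates the transcription factor Stat5b, and Stat5b in turn induces genes for circulating growth factors (Igf1, Igfals) and for feedback inhibitors (Socs2, Cish, Socs3). In rat liver the pulses leave hepatic Stat5b active intermittently in males, while the steadier secretion of females maintains other genes, so that many liver enzymes differ between the sexes. Bcl6, a transcriptional repressor, binds many of the same DNA sites as Stat5b.

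The promoter of Cish is shown because Cish is the classical Stat5 target among the feedback inhibitors and its values ranged most widely among the 10 genes. The sequence is the RefSeq reference of build GRCr8, chr8:116850719-116850968, + strand, the 250 bases before the annotated start of the gene. Capitals mark each copy of TTCNNNGAA, the palindromic core that Stat5 proteins are known to bind, which reads the same on both strands.
Cish: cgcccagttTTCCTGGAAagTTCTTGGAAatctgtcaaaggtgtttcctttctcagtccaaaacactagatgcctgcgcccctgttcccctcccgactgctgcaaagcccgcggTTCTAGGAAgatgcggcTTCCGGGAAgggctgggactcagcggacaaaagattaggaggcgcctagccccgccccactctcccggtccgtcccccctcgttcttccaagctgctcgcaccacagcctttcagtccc
The 4 copies read TTCCTGGAA, TTCTTGGAA, TTCTAGGAA and TTCCGGGAA, and they lie 241 to 233, 230 to 222, 136 to 128 and 119 to 111 bases before the start. None of them overlapped another. Of 33469 RefSeq promoters searched over the same 250 bases, 7.67% held at least 1 copy, 0.418% held 2 or more, and 2 held 4 or more. The promoter table used here, from RefSeq, was matched for 9 of the 10 genes (Socs2 was not analysed here), and in the 8 other than Cish these letters were not found in this window. A match is a description of the letters and not of a site in use. The lack of a match in these 250 bases does not tell whether a gene has sites elsewhere.

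The arrays gave values from 5.35 to 14.53 (log2) for 31042 probe sets, apart from 57 controls, and every array had a median of 6.65. Of the probe sets, 4155 (13.4%) were measured, with a median difference between the diets of -0.02 (log2, HP minus control) and a median within-diet SD of 0.13. In the check of the tissue, 4 of 7 hepatocyte markers on the array were measured, with mean levels of 13.02 to 13.18 in control rats and 12.94 to 13.10 in HP rats. Of these, Cps1, a urea cycle enzyme, was called lower by rank products (-0.27 ± 0.06, SE, FDR 0.0176), with all 4 HP rats below all 4 control rats. The only measured erythroid marker, Hbb, was called higher (0.24 ± 0.13, SE, FDR 0.0297). Of the other lists, 0 of 5 cholangiocyte and 0 of 6 lymphocyte markers were measured. This reflects their span and does not tell whether those cells were present. The hepatocyte markers Alb (14.53), Ttr (13.96) and Serpina1 (13.81) were also nearly constant and not measured. All 8 measured Kupffer cell and macrophage markers had lower means in HP rats (median -0.12, mean level over the list of 8.65 to 9.05 in control and 8.63 to 8.87 in HP rats, and 1, Cd5l, called lower by rank products). All 4 measured markers of sinusoidal endothelium had higher means (median 0.19, mean level 9.46 to 9.60 in control and 9.58 to 9.75 in HP rats, and 2, Stab2 and Kdr, called higher), as did all 7 of stellate cells (median 0.05, mean level 8.24 to 8.48 in control and 8.38 to 8.50 in HP rats, 0 called). As in Cps1, the diets did not overlap in Cd5l (HP below) and Kdr (HP above). Over all measured probe sets, rank products called 8.5% higher and 12.1% lower. All HP rats were above all control rats in 3.1% of them and below in 4.07%. The part of these cell types in the values below was not tested, and in whole liver fewer cells of a type and less RNA per cell cannot be told apart.

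The first question was whether the HP diet moved the growth hormone response genes. Rank products and a linear model were applied to the whole table. Rank products, the method of the study, ranks all 16 differences between an HP and a control rat and compares them with permuted values at a false discovery rate (FDR) under 0.05. The values were permuted within each array, and each rat enters several of the 16 differences. This FDR therefore does not measure the spread between rats. Rank products placed Socs2 and Rgs3 higher in HP rats and Bcl6 and both probe sets of Cish lower. Thus 2 of 10 measured probe sets were called higher, where 8.5% of all measured probe sets were (1.14% of the whole table), and 3 of 10 were called lower, where 12.1% were (1.62% of the whole table). Of the 3 called lower, 2 were probe sets of Cish. Large spreads of Socs2, Cish and Bcl6 were known when the genes were listed, so these shares are a description and support no diet effect. When ranks were taken over the measured probe sets alone, the calls of Socs2 and Bcl6 were kept and those of Rgs3 and Cish were not. The limma linear model, which weighs a difference against the spread between rats, called 0 of the 10 (adjusted p = 0.415 to 0.859), and 0 of them had an unadjusted p under 0.05. It called 0.0% of all measured probe sets in each direction after adjustment, with unadjusted p under 0.05 for 5.37% higher and 7.29% lower. None of the 10 separated the diets, whereas all HP rats exceeded all control rats in 3.1% of measured probe sets and fell short of all of them in 4.07%. The median difference of the 10 was -0.06, and in 9 of them the difference was smaller than the SD of the control rats. Intervals below are 95% intervals of the limma fit. Its p-values weigh the diet difference against the spread between single livers, adjusted with the spread of all measured probe sets.

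**Figure D1:**
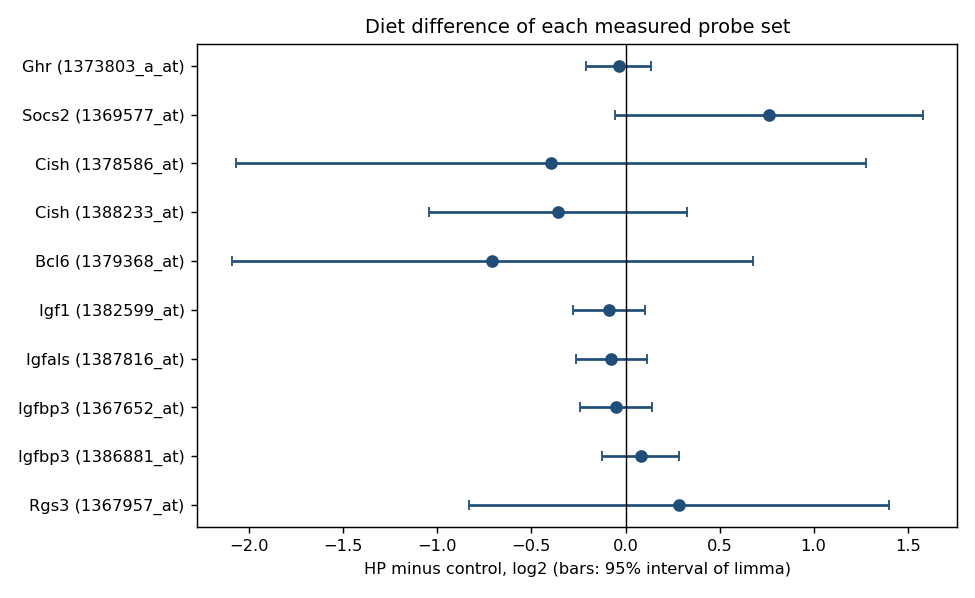
Diet difference of each of the 10 measured probe sets, HP minus control on the log2 scale, with the 95% interval of the limma fit (4 rats per diet). All 10 intervals include 0, and those of Socs2, Cish, Bcl6 and Rgs3 are several times wider than those of Ghr, Igf1, Igfals and Igfbp3.

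At the top of the pathway, Ghr, the receptor, was expressed at similar log2 values on both diets. Its probe set 1373803_a_at read 11.62, 11.53, 11.69 and 11.86 in control rats 1 to 4 and 11.74, 11.66, 11.63 and 11.52 in HP rats 1 to 4. The highest and nearly the lowest of the 8 values were both from control rats, and the diets overlapped. The difference was -0.04 ± 0.08 (SE, n = 4 per diet, interval -0.21 to 0.14, limma adjusted p = 0.859), and it was 0.027 when control rat 4 was left out and 0.0021 without HP rat 4, so that no direction can be given. A second Ghr probe set (1368924_at, about 8.97) was nearly constant and was not measured.

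Socs2, a feedback inhibitor that tags the growth hormone receptor for degradation, had the largest positive difference of the 10 genes. Control rats 1 to 4 read 7.91, 6.36, 6.35 and 7.01 (log2, 1369577_at), and HP rats 1 to 4 read 8.10, 8.01, 7.36 and 7.20. All 4 HP rats were above 3 of the 4 control rats, and control rat 1 lay within the HP range. Control rats 2 and 3 read below the array median of 6.65, and no detection value was used. Whether such low values hold signal was not tested. The mean was 6.91 ± 0.73 (SD, n = 4) in control and 7.67 ± 0.46 (SD, n = 4) in HP rats. The difference was 0.76 ± 0.36 (SE), or 1.70-fold with an interval of 0.961-fold to 2.99-fold. Rank products called it higher (FDR 0.000125) and limma did not (adjusted p = 0.415). Without control rat 1 the difference was 1.09, the 4 HP rats then exceeded the 3 control rats, and the limma adjusted p was 0.0993. Across the other omissions of 1 rat it was lowest, at 0.58, without control rat 3.

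Cish, a second inhibitor of the same family that competes for the receptor, ranged over 2.86 (log2) between rats. Probe set 1378586_at read 8.76, 6.34, 6.04 and 8.77 in control rats 1 to 4 and 7.57, 6.69, 8.16 and 5.91 in HP rats 1 to 4. Control rats 1 and 4 were highest and control rats 2 and 3 among the lowest, so that the control group alone covered nearly the whole range. Control rats 2 and 3 and HP rat 4 read below the array median of 6.65, where signal was not tested. The difference was -0.40 ± 0.74 (SE, interval -2.07 to 1.28, limma adjusted p = 0.838), although rank products called it lower (FDR 0.00244). It was 0.032 without control rat 1, 0.034 without control rat 4, -0.87 without control rat 3 and 0.39 when the arrays were weighted. In the same omissions of control rat 1 or 4, rank products called a Cish probe set higher in place of lower, which leaves the gene without a direction between the diets.

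The second Cish probe set (1388233_at) ordered the rats almost alike. Its values were 7.16, 6.08, 5.94 and 7.08 in control rats 1 to 4 and 6.19, 6.08, 6.62 and 5.93 in HP rats 1 to 4. Over the 8 rats its Pearson's r with the first was 0.949 (Spearman's rho 0.976), so that the spread between rats was read by both sets of probes. The difference was -0.36 ± 0.30 (SE, limma adjusted p = 0.601, rank products FDR 0.0227). On this probe set all rats but control rats 1 and 4 read below the array median of 6.65, and no detection value was used.

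Bcl6, the repressor, ran opposite to Cish in most rats. Probe set 1379368_at read 9.91, 10.49, 10.78 and 8.69 in control rats 1 to 4 and 9.05, 8.34, 8.70 and 10.95 in HP rats 1 to 4. HP rats 1 to 3 were among the 4 lowest together with control rat 4, and HP rat 4 was the highest of all 8. The difference was -0.71 ± 0.61 (SE, interval -2.09 to 0.68, limma adjusted p = 0.614), called lower by rank products (FDR 0.000929). Leaving out HP rat 4 moved it to -1.27, and leaving out HP rat 2 moved it to -0.40. Both values were negative, with the smallest limma adjusted p over the omissions at 0.443.

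Rgs3, a regulator of G protein signalling, divided the rats without regard to diet. Probe set 1367957_at read 9.99, 8.77, 8.20 and 9.99 in control rats 1 to 4 and 10.09, 8.99, 10.30 and 8.72 in HP rats 1 to 4. Control rats 1 and 4 and HP rats 1 and 3 were all at 9.99 or above and the other 4 were all at 8.99 or below, with a gap of 1.00 between them and 2 rats of each diet on either side. The difference was 0.28 ± 0.49 (SE, interval -0.83 to 1.40, limma adjusted p = 0.822, rank products FDR 0.0164 for higher). It was -0.063 without control rat 3 and 0.74 when the arrays were weighted. The rank products call was lost without control rat 3, without HP rat 1 and without HP rat 3. The other 2 Rgs3 probe sets were nearly constant.

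**Figure D2:**
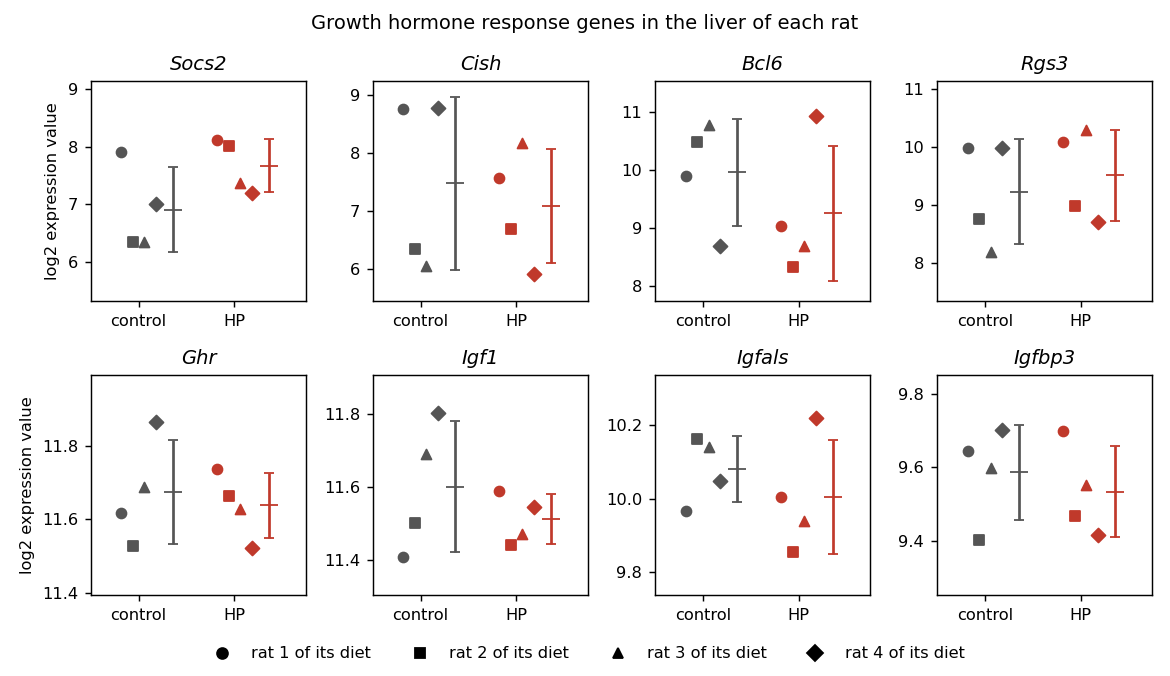
Log2 expression values of the 8 measured genes in each rat, at the probe set that stands for the gene, with control rats in grey, HP rats in red, a marker shape for each rat number, and bars for the mean ± SD (n = 4). The axis of the upper row spans more than that of the lower row: Cish ran from 5.91 to 8.77, whereas Ghr ran from 11.52 to 11.86, and the diets overlap in all 8 panels.

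The genes of the circulating growth factor complex varied much less between rats. Igf1 encodes the growth factor itself, and its probe set 1382599_at read 11.41, 11.50, 11.69 and 11.80 in control rats 1 to 4 and 11.59, 11.44, 11.47 and 11.55 in HP rats 1 to 4. The lowest and the 2 highest values came from control rats, and the HP rats lay between. The difference was -0.09 ± 0.08 (SE, interval -0.28 to 0.10, limma adjusted p = 0.656). The other 2 Igf1 probe sets were nearly constant at about 13.28 and 13.01 and allow no diet comparison.

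Igfals, the acid labile subunit that keeps Igf1 in the circulation, read 9.97, 10.16, 10.14 and 10.05 in control rats 1 to 4 and 10.004, 9.85, 9.94 and 10.22 in HP rats 1 to 4 (1387816_at). HP rat 4 was highest and HP rats 2 and 3 were lowest, so that the control values lay inside the HP range. The difference was -0.08 ± 0.08 (SE, interval -0.27 to 0.11, limma adjusted p = 0.709).

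Igfbp3, the binding protein of the same complex, was measured by 2 probe sets that differed in the sign of a small difference. Probe set 1367652_at read 9.64, 9.40, 9.60 and 9.70 in control rats 1 to 4 and 9.70, 9.47, 9.55 and 9.42 in HP rats 1 to 4, with a difference of -0.05 ± 0.08 (SE, interval -0.24 to 0.14, limma adjusted p = 0.803). Probe set 1386881_at read 9.37, 9.18, 9.35 and 9.55 in control rats 1 to 4 and 9.57, 9.47, 9.47 and 9.27 in HP rats 1 to 4, with a difference of 0.08 ± 0.09 (SE, limma adjusted p = 0.716). The diets overlapped in both, and the probe sets varied together over the rats (r = 0.761, rho = 0.786). For Ghr, Igf1, Igfals and Igfbp3 the intervals bound any difference more tightly than for the inhibitors, but they do not show that the diets were alike.

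The genes fell into 2 kinds by their spread between rats of 1 diet. The pooled within-diet SD of Cish ranked 5 among the 4155 measured probe sets, that of Bcl6 ranked 10, that of Rgs3 ranked 17 and that of Socs2 ranked 53, which puts them within the highest 0.12%, 0.241%, 0.409% and 1.28%. The rank of Cish is that of 1378586_at, and its second probe set, 1388233_at, had a smaller SD (0.50) and ranked 100 (2.41%). Large spreads of Socs2, Cish and Bcl6 were known when the genes were listed, and the ranks are a description. The same SD of Igf1, Igfals, Igfbp3 and Ghr ranked 2005, 2172, 2185 and 2365, near the middle of the table.

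**Figure D3:**
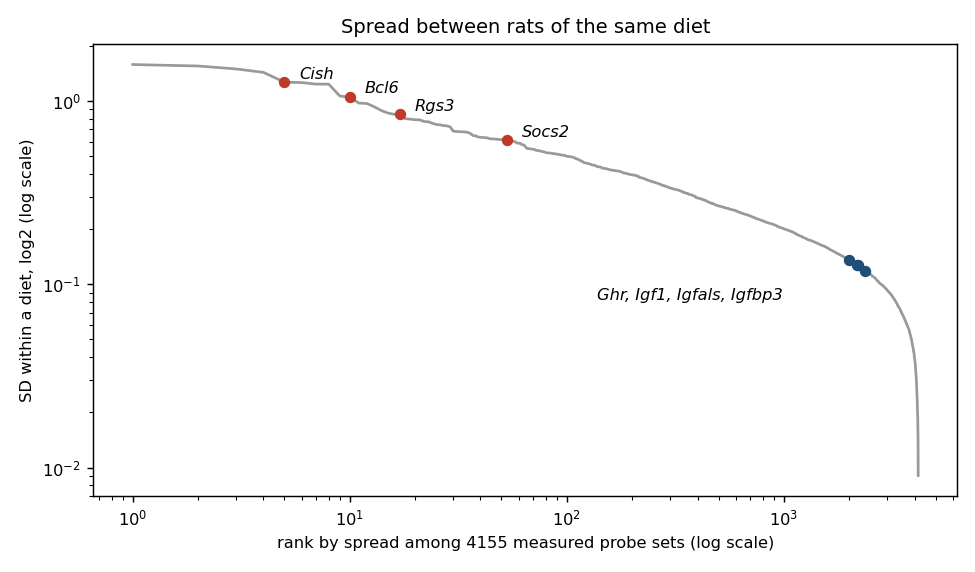
Pooled SD between rats of the same diet (log2) against its rank among the 4155 measured probe sets, both on log axes, with the grey line for all of them. Cish, Bcl6, Rgs3 and Socs2 (red) sit at ranks 5, 10, 17 and 53, and Ghr, Igf1, Igfals and Igfbp3 (blue) between ranks 2005 and 2365.

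The second question was how the genes varied together over the 8 rats. The coefficients describe 8 livers that share 1 normalization, and no p is given because some of the covariation was known when the genes were chosen. Of 21 pairs among the 7 measured genes other than Rgs3, 12 had a positive and 9 a negative Pearson's r. The sign was the same in 19 pairs after removing the diet means, and in 18 pairs whichever rat was left out. Rgs3 fell into 2 clusters of 4 rats, so no pooled coefficient is given for it, and the 4 rats high in Rgs3 were the same 4 that were highest in Cish.

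Among the feedback genes, Cish and Bcl6 varied in opposite directions. Their r was -0.60 (rho -0.69), with -0.73 after removing diet means, -0.82 to -0.48 when each rat was left out in turn, and -0.77 without the 2 rats farthest from the median of Cish. HP rat 2 was low in both genes, and control rat 1 was high in Cish (8.76) without a low Bcl6 (9.91). Both stood off the line of the others. Socs2 and Bcl6 also had opposite signs (r = -0.60, rho = -0.50, within diets -0.51), with r weakening to -0.22 without the 2 rats farthest in Socs2. Socs2 and Cish were loosely related (r = 0.44, rho = 0.33, within diets 0.68). That coefficient became -0.07 when control rats 2 and 3 were left out and therefore rested on those rats, which were the lowest in Socs2.

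The circulating complex tracked different partners. Igfals varied with Bcl6 (r = 0.86, rho = 0.81, within diets 0.84), from 0.81 to 0.93 whichever rat was left out. It varied inversely with Socs2 (r = -0.73, rho = -0.67, within diets -0.70, -0.86 to -0.66 over the omissions). These are the rats in which Igfals ranged over 0.36 (log2) while Bcl6 ranged over 2.61, so that a small and a large change ran side by side.

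Igfbp3 varied with the receptor Ghr (r = 0.82, rho = 0.81, within diets 0.81, 0.76 to 0.90 over the omissions) and with Cish (r = 0.72, rho = 0.71, within diets 0.71). Ghr and Igf1 had an r of 0.70 (rho 0.57), which fell to 0.33 without control rat 4, the rat highest in both. Ghr and Bcl6 had an r of -0.60, which was -0.34 without the 2 rats farthest from the median of Ghr.

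**Figure D4:**
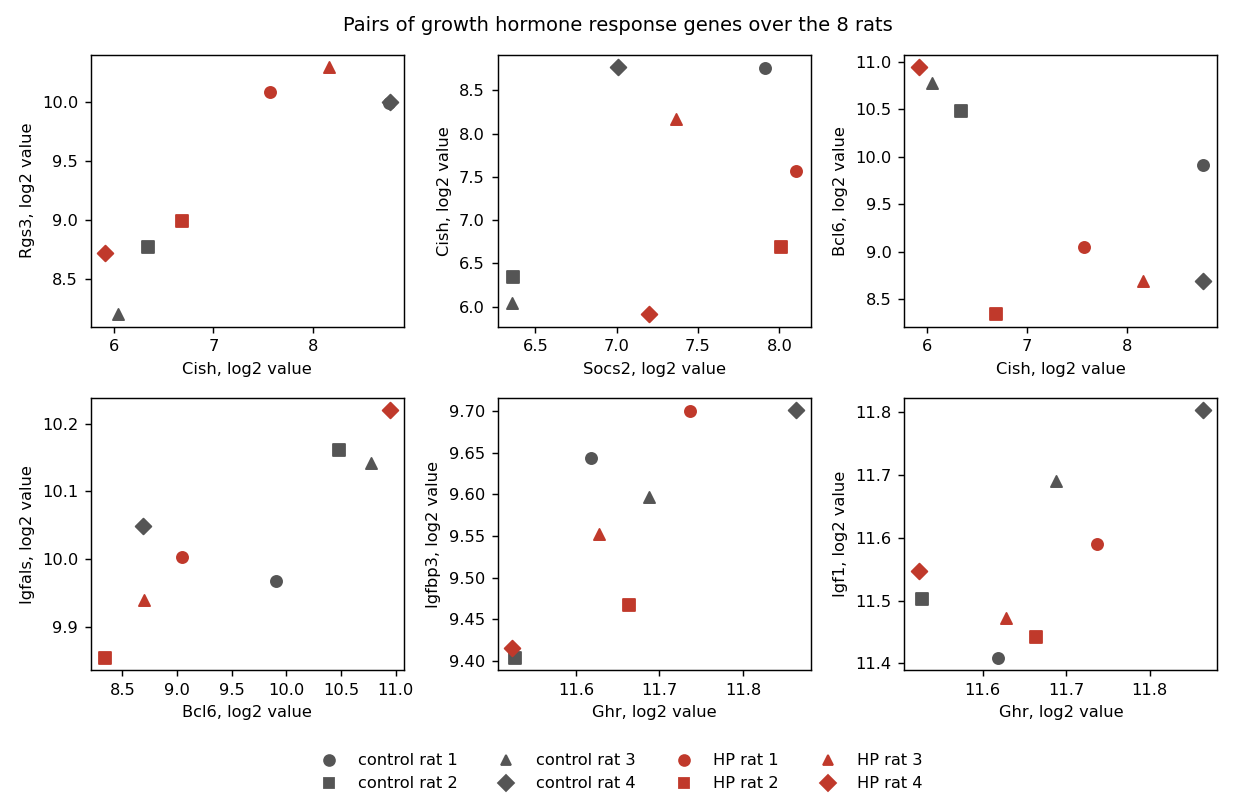
Log2 values of 6 pairs of genes over the 8 rats, each point a rat, with control rats in grey, HP rats in red and a marker shape for each rat number. In the panel of Cish and Rgs3, control rats 1 and 4 lie on nearly the same point among the 4 rats high in both. Bcl6 tends to fall as Cish rises (r = -0.60), with HP rat 2 and control rat 1 off that trend. Igfals rises with Bcl6 (r = 0.86).

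The genes whose pattern over the 8 rats was most like that of Socs2 were sought among 889 genes that spanned at least 0.5 (log2). The highest r were those of LOC102549203 (0.957), Pla2g15, a lysosomal phospholipase (0.948), Epha3, an ephrin receptor (0.939), Svil, an actin-binding protein (0.932), and Mapkapk3, a kinase downstream of p38 (0.930). The lowest were those of Prss32, a serine protease (-0.977), Pde4b, a cyclic AMP phosphodiesterase (-0.950), Cers2, a ceramide synthase (-0.949), Tspyl4 (-0.936) and Slc23a1, a vitamin C transporter (-0.929). With many genes and 8 rats, extremes of this size are a ranking and not a finding about any one of them.

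Onecut1 (HNF6), a hepatocyte transcription factor known to respond to growth hormone, had an r of 0.905 with Socs2 (rho 0.833). Its values were 11.91, 7.90, 8.06 and 10.86 in control rats 1 to 4 and 11.45, 11.07, 10.81 and 9.45 in HP rats 1 to 4. Control rats 2 and 3, which were lowest in Socs2, were lowest in Onecut1 as well, and the r without them was not computed. Onecut1 and Hhex were named apart from the ranking above, and Onecut1 belongs to a list chosen with earlier results of these data known. The within-diet SD of Onecut1 ranked 2 among the measured probe sets. Hhex, a homeobox factor of hepatocytes, ranked 1 and had an r of 0.660 with Socs2 (rho 0.524). Its values were 11.98, 9.40, 8.31 and 11.45 in control rats 1 to 4 and 11.13, 10.90, 10.13 and 8.01 in HP rats 1 to 4, with control rat 3 and HP rat 4 lowest.

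Other genes of the pathway were taken from 5 lists, which do not include the 10 genes above. Of the 24 genes of growth hormone signalling, 22 were on the array and 5 were measured, and Jak2 and Stat5a were not. Rank products called Irs2, an adaptor of insulin and growth factor receptors, higher (0.32 ± 0.25, SE) and Shc1, an adaptor to the Ras pathway, lower (-0.23 ± 0.08, SE). The median difference of the 5 was -0.07, against -0.02 over all measured probe sets. Limma called 0 of the genes in any of the 5 lists, and 1, 0, 0, 1 and 1 genes of the lists, in the order given here, had an unadjusted p under 0.05.

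Of the 14 genes of the IGF system, 13 were on the array and 5 were measured, with a median difference of 0.01. Igfbp1, a binding protein that insulin represses, was called lower (-0.28 ± 0.24, SE). It read 10.29, 10.36, 10.12 and 9.67 in control rats 1 to 4 and 9.49, 10.09, 10.39 and 9.36 in HP rats 1 to 4. HP rat 3 was the highest of all and HP rats 1 and 4 the lowest.

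All 14 genes of the list of other Stat5 and growth hormone targets were on the array and 11 were measured, with a median difference of -0.05. Rank products called Onecut1 higher (1.01 ± 0.92, SE) and Gadd45g, a growth arrest gene, lower (-0.51 ± 0.30, SE). Gadd45g read 8.51, 8.58, 7.47 and 8.61 in control rats 1 to 4 and 8.28, 7.22, 7.98 and 7.66 in HP rats 1 to 4. Control rat 3 lay among the HP rats, and the other 3 control rats lay above all of them.

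Genes that depend on the male or female pattern of growth hormone were given as 2 further lists. Of 11 male-biased genes, 9 were on the array and 8 were measured, with a median difference of 0.03, and 1 of the 8 was called, where 8.5% of all measured probe sets were called higher and 12.1% lower. It was Rup2, a urinary protein, called lower by rank products with a difference of -0.06 ± 0.57 (SE). Its probe set, whose name marks probes shared with related transcripts, read 13.27, 12.08, 11.15 and 13.37 in control rats 1 to 4 and 13.08, 12.43, 12.96 and 11.17 in HP rats 1 to 4. Control rats 1 and 4 and HP rats 1 and 3 were highest, the same rats as in Cish and Rgs3, and the pooled SD ranked 12 in the table. Cyp2c11, the male-biased gene on the array that was not measured, was nearly constant at 13.57 and allows no diet comparison.

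Of 9 female-biased genes, 8 were on the array and 3 were measured, with a median difference of -0.04. Cyp2c12, a steroid hydroxylase typical of female rat liver, was called lower by rank products (-0.68 ± 0.30, SE, limma adjusted p = 0.388). It read 10.64, 11.32, 11.21 and 10.07 in control rats 1 to 4 and 10.19, 10.49, 9.51 and 10.32 in HP rats 1 to 4. Control rats 1 to 3 were above all 4 HP rats, and control rat 4 was below 3 of them. It belongs to a gene family of close sequence, and whether related transcripts add to its value was not tested.

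**Figure D5:**
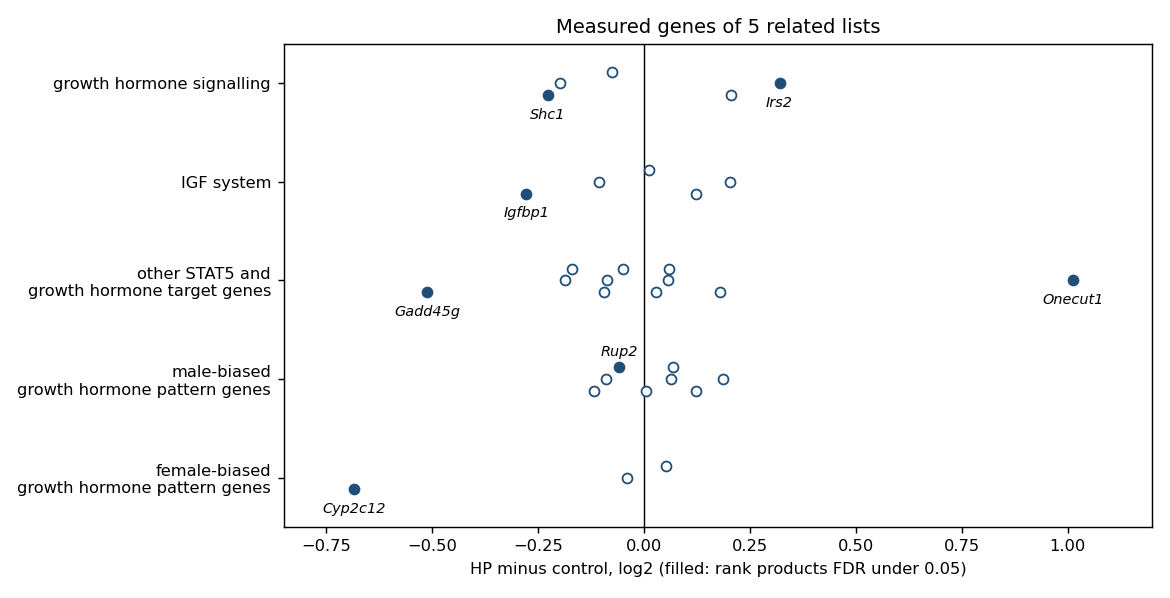
Difference between the diets (HP minus control, log2) of every measured gene of the 5 related lists, 1 point a gene, filled where rank products had an FDR under 0.05. The 7 filled points run from -0.68 (Cyp2c12) to 1.01 (Onecut1), and most of the other points lie between -0.2 and 0.2.

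In the promoters of the list genes, 6 of the 57 with a RefSeq promoter held TTCNNNGAA in the 250 bases before the start, against 7.67% of all promoters. These were Prlr, Bcl2l1, Serpina3n, A1bg, Rup2 and Socs1. Of them Serpina3n (a difference of -0.09 ± 0.09, SE) and Rup2 were measured on these arrays, and the diets overlapped in both.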

How the data were processed

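Liver RNA from 4 control and 4 HP rats was hybridised to 1 Affymetrix rat array each. The deposited log2 values had been summarised per probe set by the authors with FARMS, in R 2.13.1 per the submitters' processing notes; FARMS leaves a probe set without signal shared by its probes nearly constant. How the arrays were normalized to each other was not stated in the sources read, and nothing was added. No detection value was used; the number of arrays limits the precision.

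The 20826 probe sets with 1 symbol were named from the platform annotation. The members and lists were chosen with earlier results of these data known. Named are all measured member probe sets (a gene is represented by its measured set of highest mean), list genes called by either method, the 5 genes with the highest and the 5 with the lowest r with Socs2, Onecut1 and Hhex. Rank products used 16 differences and 1000 permutations within arrays over all probe sets, in Python 3.11.15 with numpy 2.4.6. Limma 3.58.1 (R 4.3.3, statmod 1.5.0; trend and robust empirical Bayes, two-sided, Benjamini-Hochberg adjusted p under 0.05) was fitted over the 4155 measured probe sets. The methods were tested on simulated data. For rank products this test used the measured probe sets only and fewer permutations, so it does not cover the setting of the reported calls. Alternatives were centring, quantile normalization, a span of 0.2 or none, plain empirical Bayes, array weights, a replicate block, ranks over measured probe sets, gene means, and omission of each rat. Other software was pandas 2.3.3, scipy 1.17.1 and matplotlib 3.10.9.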

Additional observations from a re-analysis of the deposited data

How the results depend on the processing

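Of 297 recomputed values, 280 kept their direction and, where there is one, their side of the threshold (for counts, stayed within 1.5 times), 9 moved and 8 reversed. Of the 9, 1 was a coefficient that weakened but kept its direction (Ghr and Igf1 without control rat 4, 0.33 against 0.70). A count could also stay while its members changed. Without control rat 1 or 4, a Cish probe set was called higher and none lower. Part of the 280 could not change direction. Plain empirical Bayes, the replicate block and both span settings returned the same log2 differences. The gene mean did so too for genes with 1 measured probe set. The 8 reversals were differences that limma did not call: with array weights, Ghr at 0.0018 and Cish at 0.39; with the mean of its probe sets, Igfbp3 at 0.014; and on omission of a rat, Ghr at 0.027 (control rat 4) and 0.0021 (HP rat 4), Cish at 0.032 (control rat 1) and 0.034 (control rat 4), and Rgs3 at -0.063 (control rat 3). The cause was not tested. Over the omissions, the difference ran from -0.085 to 0.027 for Ghr, 0.58 to 1.09 for Socs2, -0.87 to 0.034 for Cish, -1.27 to -0.40 for Bcl6, -0.15 to -0.021 for Igf1, -0.15 to -0.025 for Igfals, -0.11 to -0.013 for Igfbp3 and -0.063 to 0.55 for Rgs3. Rank products over measured probe sets only called 1 member probe set higher (Socs2) and 1 lower (Bcl6), and 25 higher and 16 lower in the whole table. On omission of each rat it called 1 to 3 member probe sets higher and 1 to 3 lower, and in 0 to 1 all HP rats exceeded all control rats (Socs2, without control rat 1). Limma called 0 member probe sets under every alternative. For the 8 measured genes, each at the probe set that stands for it or at its gene mean, the limma adjusted p ran from 0.0993 to 0.998. The labels do not state whether the replicate numbers pair rats across the diets. Deviations of same-numbered rats correlated at 0.479, 0.031, -0.123 and -0.197, and 1 of 4 control rats correlated best with its own number. So few values cannot settle whether the rats were paired. With the replicate block limma called 0. No background value was used, and dim or constant probe sets, Stat5b and Socs3 among them, carry no measurable difference.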
